A study of Mus musculus with 8 samples.

Results

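Progression of a cell from G1 into S phase is driven by cyclins, the subunits that switch on cyclin-dependent kinases (CDKs), and is restrained by CDK inhibitors. D cyclins activate CDK4 and CDK6 and E cyclins activate CDK2, which together phosphorylate the retinoblastoma protein and release E2F transcription factors. The inhibitors fall into the Cip/Kip family (Cdkn1a, Cdkn1b, Cdkn1c), which acts on CDK2 complexes and also binds D cyclin complexes, and the INK4 family (Cdkn2a, Cdkn2b, Cdkn2c, Cdkn2d), which binds CDK4 and CDK6. In the pituitary these genes are known from mouse genetics, since mice without Cdkn1b or Cdkn2c develop tumours of the intermediate lobe, where the melanotropes lie.

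Here 10 such genes were followed, listed by name: the CDK inhibitor genes Cdkn1a, Cdkn1b, Cdkn1c, Cdkn2a, Cdkn2c and Cdkn2d, the D cyclin genes Ccnd1, Ccnd2 and Ccnd3, and the E cyclin gene Ccne1. All 10 were found among the 55401 genes of the deposited files, with a single entry for each gene. RNA came from AtT-20 cells, a mouse corticotrope line of pituitary tumour origin with the genotype ER-Pax7, in which an introduced Pax7 is switched on by tamoxifen. The 8 libraries were 2 for each of 0, 24, 48 and 72 h of tamoxifen, and the 0 h cells carried ER-Pax7 as well. Libraries of cells without ER-Pax7 or given vehicle were not used here, so effects of Pax7, tamoxifen and time in culture cannot be told apart. Nothing in the labels says that replicates were separate cultures, so the p-values cover only how far the 2 libraries of a time differ, and this may be technical.

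The values are a normalized signal, read as mean coverage per base over the merged exons of all annotated transcripts of a gene. Levels of different genes are set side by side per length on that reading. Annotated exons that these cells do not use would lower a gene's value, and this was not tested. Ccnd3, for instance, has 21 transcripts and 8775 exonic bases, against 5 and 2662 for Ccne1. Summed signal was 164236 to 178548 per library, and read depth is not given. Pax7 was already at 12.9 and 13.3 at 0 h and lay between 12.6 and 14.4 with tamoxifen, which acts on the protein. Only the 0 h libraries lay nearest to each other (0.994), while every tamoxifen library correlated best with a library of another time. The 24 h and 48 h replicates 2, for example, correlated at 0.995, against 0.984 and 0.985 with their own partners. The mitochondrial mt-Rnr1 had 25.1 in 72 h replicate 2 and 1.14 to 5.97 in the other 7 libraries. The 8 corticotrope genes checked summed to 670 to 681 at 0 h, 538 to 596 at 24 h, 587 to 596 at 48 h and 718 to 733 at 72 h, nearly all of it the hormone gene Pomc at 499 to 679. The regulators Tbx19 and Neurod1 were at 16.3 to 23.2 and 3.93 to 5.08 and the convertase gene Pcsk1 at 15.4 to 24.5. The receptor gene Crhr1 was at 0.0354 to 0.129, Nr4a1 at 0.333 to 0.701, and Avpr1b was listed at 0 in 7 libraries. Genes averaging 1 or more were tested with limma on log2(signal + 1) and called at an adjusted p under 0.05. The glucocorticoid receptor gene Nr3c1 fell from 5.07 and 4.93 at 0 h to 3.43 and 3.69 at 72 h (log2 -0.40, limma adjusted p = 0.0440), a call lost with the lower floor described for Ccnd1 (limma adjusted p = 0.0539), and limma called none of the other 4 tested corticotrope genes.

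The 7 melanotrope genes summed to 19.3 to 22.5, most of it Pax7, with the receptor gene Drd2 listed at 0 throughout. Pcsk2, a prohormone convertase gene, and Oacyl averaged under 1. With the lower floor both rose at 72 h, Pcsk2 from 0.325 and 0.294 to 0.845 and 0.822 (log2 1.19, limma adjusted p = 0.00425) and Oacyl from 0.0129 and 0.0171 to 0.618 and 0.635 (log2 2.66, limma adjusted p = 0.00134). Pax7, Opn3, Pkib and Megf11 were not called at 72 h in that fit (log2 0.08, 0.22, 0.04 and 0.18, limma adjusted p = 0.446 to 0.935). The part of the marker differences in the members' values was not tested. The 9 genes of other pituitary endocrine cells summed to 2.07 to 2.11 at 0 h and 1.37 to 1.70 at 72 h, mostly Gata2, with Prl, Tshb and Fshb listed at 0 throughout, and 5 progenitor and folliculostellate genes summed to 0.986 to 1.24. Markers of cell types outside the pituitary endocrine lineage summed to at most 0.555 for 6 fibroblast genes, 0.832 for 6 immune genes, 0.887 for 5 endothelial genes and 0.223 for 6 muscle genes in any library. Most of each sum came from 1 gene: Col1a1 (0.222 to 0.537), Csf1r (0.446 to 0.563), Plvap (0.531 to 0.808) and Des (0.0748 to 0.214). Lum, Cd3e, Kdr and Myod1 were listed at 0 throughout. These are bulk samples, in which fewer cells expressing a gene and less RNA per cell cannot be told apart.

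Among the members, 8 averaged 1 or more over the 8 libraries and were tested, while Ccnd1 and Ccnd2 lay below that level. No member was called higher or lower at any time. For each of the 8, the 95% intervals of the changes from 0 h at the 3 times lay inside 1.5-fold in either direction on the log2(signal + 1) scale, with bounds from -0.29 to 0.46 over all of them. That scale understates the change of low genes, and a missed threshold does not show that levels were equal.

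The levels themselves spanned a wide range. Cdkn1a, the p53-responsive inhibitor, had the highest mean signal of the 10, at 11.6, above 90.0% of the 9606 tested genes. Cdkn2c followed at 8.14, Cdkn1b at 5.38, Cdkn2d at 4.28, Cdkn1c at 3.01, Ccne1 at 2.83, Ccnd3 at 1.65 and Cdkn2a at 1.02. The order of Cdkn1a, Cdkn2c, Cdkn1b and Cdkn2d held in 8 of 8 libraries, although the ranges of Cdkn1b and Cdkn2d overlapped across libraries. Cdkn1c and Ccne1 were not separated, with Cdkn1c higher in 6 of 8 libraries. Ccnd3 was above Cdkn2a in 8 of 8 libraries, with no overlap of their ranges.

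**Figure D1:**
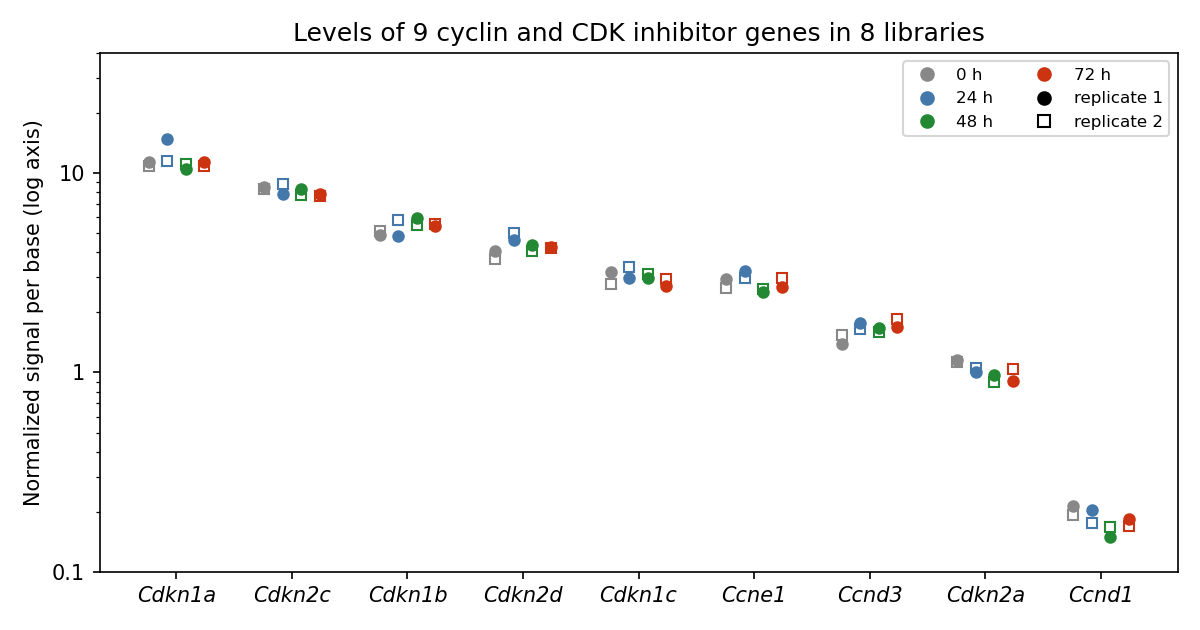
Normalized signal (log axis) of 9 members in each of the 8 libraries, coloured by hours of tamoxifen, with filled circles for replicate 1 and open squares for replicate 2. Cdkn1a stands highest at 10.5 to 14.8 and Ccnd1 lowest at 0.150 to 0.213, and Ccnd2, listed at 0 in 7 libraries, is not drawn.

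The D cyclins pair with CDK4 and CDK6 and are the first cyclins to respond to growth signals. Of the 3, Ccnd3 held most of the signal. Ccnd3 (ENSMUSG00000034165.16, chromosome 17, 47505051 to 47599691, GRCm38) had 1.39 and 1.54 in the 0 h libraries, 1.77 and 1.66 at 24 h, 1.67 and 1.60 at 48 h, and 1.69 and 1.85 at 72 h. All 6 libraries with tamoxifen were above both 0 h libraries. The mean went from 1.46 ± 0.107 to 1.77 ± 0.112 at 72 h (SD, n = 2), 1.21-fold, with log2 0.17, SE 0.05 and adjusted p = 0.182 in limma. The changes at 24 and 48 h were log2 0.14 and 0.10, with limma adjusted p = 0.342 and 0.614. Over the alternative settings the limma adjusted p at 72 h was 0.158 to 0.563. A straight line over the times had a slope of 0.047 per 24 h (SE 0.019, limma adjusted p = 0.288). Of the exonic bases of Ccnd3, 4.1% lie in exons of Bysl on the other strand, which had 0.775 to 1.37.

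Ccnd1 (ENSMUSG00000070348.5, chromosome 7, 144929931 to 144939925) had 0.213 and 0.193 at 0 h, 0.204 and 0.176 at 24 h, 0.150 and 0.168 at 48 h, and 0.185 and 0.170 at 72 h. The 48 and 72 h libraries were below both 0 h libraries, and the 24 h libraries overlapped them. In a limma fit with a lower floor, for genes averaging 0.1 or more and with 0.1 added before the log, the changes were log2 -0.06, -0.23 and -0.13 with adjusted p = 0.891, 0.662 and 0.741. That fit called 0.162%, 0.548% and 1.57% of its genes at 24, 48 and 72 h. Exons of the neighbouring LTO1 on the other strand, at 0.349 to 0.444, cover 23.4% of the exonic bases of Ccnd1. How much of so low a signal comes from LTO1 was not tested.

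Ccnd2 (ENSMUSG00000000184.12, chromosome 6, 127125162 to 127152193) was listed at 0 in 7 libraries and at 0.00082 in 72 h replicate 1. Ccnd3 thus made up 86.7% to 91.8% of the summed D cyclin signal, with 86.7% and 88.9% in the 0 h libraries and 89.6% to 91.8% in the others. The summed signal of the 3 genes was 1.60 and 1.73 at 0 h and 1.77 to 2.02 with tamoxifen. Of their kinase partners, named after their values were seen, Cdk4 had 27.1 to 33.8 and Cdk6 0.00244 to 0.0162. Cdk4 shares 19.7% of its exonic bases with exons of Tspan31, which had 11.6 to 13.2.

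Ccne1 codes for cyclin E1, the partner of CDK2 at entry into S phase. Ccne1 (ENSMUSG00000002068.16, chromosome 7, 38097984 to 38107534) had 2.95 and 2.66 at 0 h, 3.21 and 2.99 at 24 h, 2.54 and 2.62 at 48 h, and 2.69 and 2.97 at 72 h. The 24 h libraries were above and the 48 h libraries below both 0 h libraries, and the 72 h libraries overlapped them. The changes were log2 0.11, -0.09 and 0.01 (SE 0.06 each), with limma adjusted p = 0.486, 0.712 and 0.972. Its relative Ccne2, from the list of cyclins and named after its values were seen, was at 6.64 and 6.50 in the 0 h libraries, against 8.06 and 7.37 at 24 h (log2 0.20, limma adjusted p = 0.305). Ccne2 shares 17.4% of its exonic bases with Ints8, which was at 2.74 and 3.07 in the 0 h libraries, against 3.62 and 3.44 at 24 h.

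Cdkn1a codes for the Cip/Kip inhibitor p21, a target of p53 that halts the cycle after DNA damage. Cdkn1a (ENSMUSG00000023067.14, chromosome 17, 29090976 to 29100727) had 11.4 and 10.8 at 0 h, 14.8 and 11.5 at 24 h, 10.5 and 11.1 at 48 h, and 11.4 and 10.9 at 72 h. One library, 24 h replicate 1, stood above the other 7, which lay between 10.5 and 11.5. The change at 24 h was log2 0.22 (SE 0.11, limma adjusted p = 0.434), 0.05 without 24 h replicate 1 (limma adjusted p = 0.835) and 0.39 without 24 h replicate 2 (limma adjusted p = 0.0605). Over all alternatives this adjusted p was 0.0605 to 0.835. At 48 and 72 h the changes were log2 -0.04 and 0.00, with limma adjusted p = 0.940 and 0.992. Of its exonic bases, 7.7% lie in exons of 1700023B13Rik on the other strand, at 0.741 to 1.0. The library 24 h replicate 1 also had the highest value of Ccne1 (3.21), Ccne2 (8.06) and Trp53 (8.48), but the lowest of Cdkn1b (4.81). Why this library differed was not tested.

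Cdkn1b codes for p27, which restrains CDK2 in resting cells and is mainly controlled through degradation of the protein. Cdkn1b (ENSMUSG00000003031.14, chromosome 6, 134920401 to 134925513) had 4.90 and 5.11 at 0 h, 4.81 and 5.81 at 24 h, 5.92 and 5.47 at 48 h, and 5.43 and 5.56 at 72 h. The 48 and 72 h libraries were above both 0 h libraries, while the 24 h libraries lay on either side of them. The changes were log2 0.07, 0.16 and 0.11 (SE 0.08 each), with limma adjusted p = 0.752, 0.572 and 0.563.

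Cdkn1c codes for p57 and is an imprinted gene, expressed from the maternal allele in mice. Cdkn1c (ENSMUSG00000037664.13, chromosome 7, 143458339 to 143461050) had 3.20 and 2.77 at 0 h, 2.97 and 3.37 at 24 h, 2.99 and 3.12 at 48 h, and 2.73 and 2.96 at 72 h. Every later group overlapped the 0 h libraries, and the changes were log2 0.07, 0.03 and -0.05 (limma adjusted p = 0.729, 0.942 and 0.819). The antisense gene Gm44732, at 0.903 to 1.16, covers 30.7% of its exonic bases with its own exons, and whether the authors' values separate the strands is not given. In the same imprinted domain, Kcnq1ot1, the RNA that silences the paternal domain, had 0.136 to 0.191. The potassium channel gene Kcnq1 there was at 1.31 and 1.21 in the 0 h libraries, against 0.898 and 0.980 at 72 h (log2 -0.22, limma adjusted p = 0.152).

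Cdkn2c codes for the INK4 inhibitor p18. Cdkn2c (ENSMUSG00000028551.14, chromosome 4, 109660876 to 109667189) had 8.51 and 8.35 at 0 h, 7.83 and 8.85 at 24 h, 8.30 and 7.80 at 48 h, and 7.82 and 7.67 at 72 h. The 48 and 72 h libraries were below both 0 h libraries, and the 24 h libraries lay on either side. The changes were log2 -0.02, -0.06 and -0.11 (SE 0.07 each), with limma adjusted p = 0.936, 0.847 and 0.489.

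Cdkn2d codes for the INK4 inhibitor p19. Cdkn2d (ENSMUSG00000096472.2, chromosome 9, 21288410 to 21291407) had 4.05 and 3.70 at 0 h, 4.62 and 4.99 at 24 h, 4.34 and 4.07 at 48 h, and 4.28 and 4.22 at 72 h. The 24 h libraries were the highest of the 8, and all 6 tamoxifen libraries were above both 0 h libraries. At 24 h the mean was 4.81 ± 0.261 against 3.87 ± 0.249 (SD, n = 2), 1.24-fold. This log2 change of 0.25 (SE 0.06, interval 0.11 to 0.39) had the smallest p of any member in any comparison, unadjusted 0.00339 and limma adjusted p = 0.178 (0.146 to 0.571 over the alternatives). At 48 and 72 h the changes were log2 0.10 and 0.11, with limma adjusted p = 0.662 and 0.439.

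**Figure D2:**
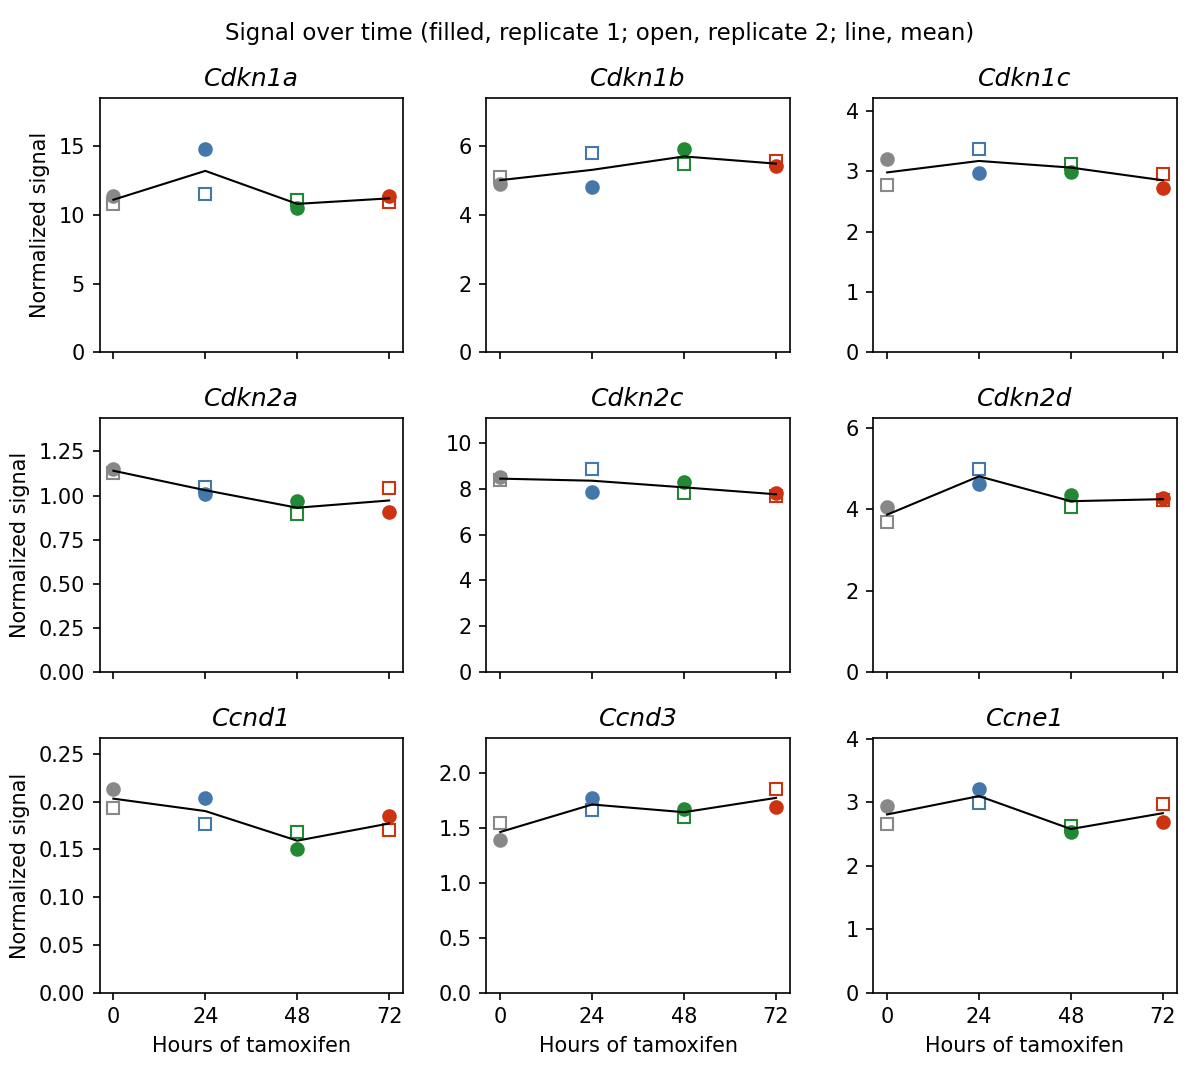
Normalized signal of 9 members against hours of tamoxifen, each panel with its own axis from 0, with filled circles for replicate 1, open squares for replicate 2 and a line through the means of n = 2. Cdkn2d and Ccnd3 lie above both 0 h libraries, and Cdkn2a below them, in all 6 tamoxifen libraries, and Cdkn1a in 24 h replicate 1 stands apart at 14.8.

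Cdkn2a makes 2 proteins from separate starts: p16, an INK4 inhibitor, and from the upstream start Arf, which stabilizes p53. Cdkn2a (ENSMUSG00000044303.6, chromosome 4, 89274471 to 89294653) had 1.15 and 1.13 at 0 h, 1.01 and 1.05 at 24 h, 0.969 and 0.893 at 48 h, and 0.907 and 1.04 at 72 h. All 6 tamoxifen libraries were below both 0 h libraries, with means of 1.14 ± 0.0157 at 0 h and 0.931 ± 0.0543 at 48 h (SD, n = 2). The log2 changes were -0.07, -0.15 and -0.12 (SE 0.05 each), with limma adjusted p = 0.577, 0.363 and 0.340, and the slope was -0.042 per 24 h (SE 0.017, limma adjusted p = 0.288). On the lower floor scale, where low genes are compressed less, the change at 48 h was log2 -0.26 (limma adjusted p = 0.359), and over the alternatives that gave a value the adjusted p at 48 h was 0.307 to 0.789.

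The files give 1 value for the gene, so the 2 products of Cdkn2a were not separated. The windows before their starts are shown because they differ in make-up while sharing that value. Each window is 200 bases just upstream of a RefSeq start, leaving out the bases nearest to it (GRCm38.p6, minus strand, 5′ to 3′), at chr4:89294670-89294869 for the upstream start and chr4:89282243-89282442 for the downstream start. Capitals mark a match to the E2F motif, searched on both strands as TTTCCCGC, TTTGGCGC, TTTCGCGC and TTTGCCGC.
Cdkn2a upstream start: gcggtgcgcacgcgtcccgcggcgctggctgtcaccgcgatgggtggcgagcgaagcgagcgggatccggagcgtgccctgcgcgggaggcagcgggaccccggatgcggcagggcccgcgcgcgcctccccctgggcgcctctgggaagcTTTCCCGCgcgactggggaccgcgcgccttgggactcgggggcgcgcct
Cdkn2a downstream start: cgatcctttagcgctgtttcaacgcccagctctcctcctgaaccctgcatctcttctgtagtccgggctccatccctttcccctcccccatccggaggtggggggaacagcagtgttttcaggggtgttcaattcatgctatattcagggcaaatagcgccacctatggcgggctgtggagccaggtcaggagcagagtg

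The upstream window holds 34 CG dinucleotides and the downstream window 7, against a median of 4 over all 32851 promoter windows of the same length. A match to the motif occurred in 1.46% of all windows. Among the 11 windows of the 7 members with an entry, only that upstream window of Cdkn2a held a match. At least as many CG dinucleotides as there were found in 0.81% of all windows. Each motif sequence holds a CG itself, and the share of matches among windows equally rich in CG was not counted. A match is a description of these letters and not a measured binding site. Cdkn2b, the INK4 gene beside Cdkn2a, had 0.474 to 0.588 and lay below the filter. Mtap, the neighbour on the other side of Cdkn2a, had 1.85 to 2.39 (log2 0.04 at 72 h, limma adjusted p = 0.875). Of the 7 listed neighbours of Cdkn1c and Cdkn2a, 3 were tested and limma called 0 of them at each time.

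The members were set beside all tested genes. At 24 h limma called 0 of 8 members, against 0.229% of all 9606 genes, and 2 members (Cdkn2d and Ccnd3) had an unadjusted p under 0.05, against 13.2% of all genes. At 48 h it called 0 of 8, against 0.552%, with Cdkn2a alone under 0.05 unadjusted, against 10.5%. At 72 h it called 0 of 8, against 2.01%, with Ccnd3 alone under 0.05 unadjusted, against 15.7%. An F test over the 3 times called 0 of 8, against 0.344%, with Cdkn2d under 0.05 unadjusted, against 13.9%. The linear trend called 0 of 8, against 1.96%, with Cdkn2a and Ccnd3 under 0.05 unadjusted, against 14.8%. The median log2 change of the 8 was 0.09, -0.01 and 0.01 at the 3 times, beside 0.014, 0.004 and 0.008 over all tested genes.

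Groups that did not overlap with 0 h were common among all genes too. At 24 h, 4 of 8 members had both libraries above both 0 h libraries and 1 had both below, against 24.4% and 17.8% of all tested genes. At 48 h these were 3 above and 3 below, against 24.3% and 22% of all genes, and at 72 h 3 above and 2 below, against 27.4% and 22.4%. All 6 tamoxifen libraries were above both 0 h libraries for 2 members (Cdkn2d and Ccnd3), against 9.58% of all genes, and below them for 1 (Cdkn2a), against 6.81%.

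**Figure D3:**
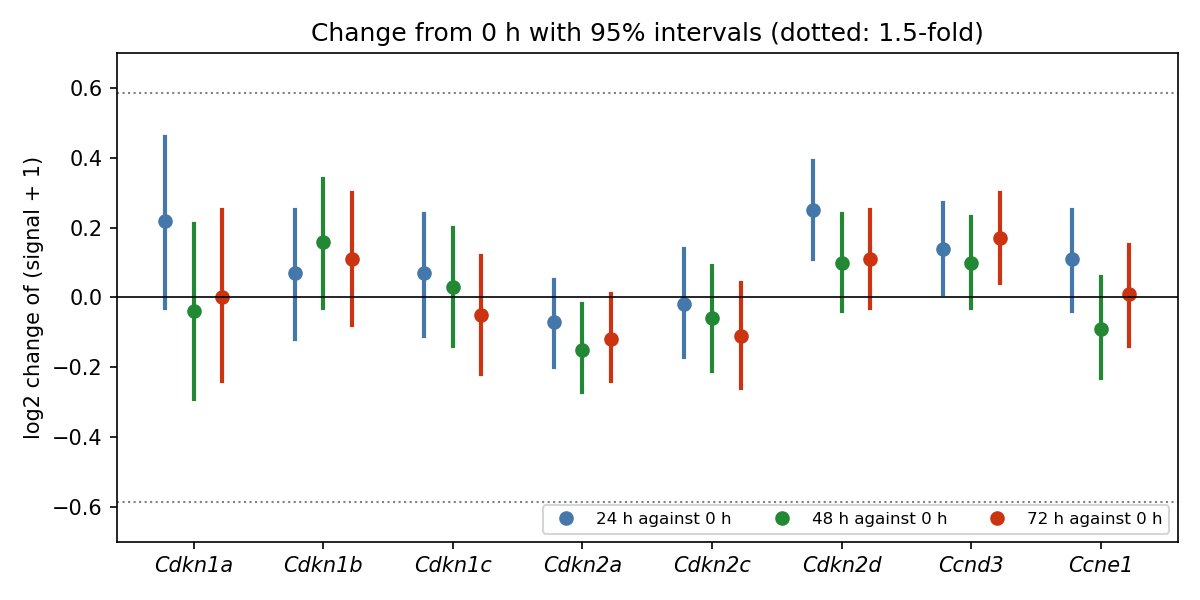
The log2 change of (signal + 1) from 0 h for the 8 tested members at 24, 48 and 72 h, with bars for unadjusted 95% intervals from limma and dotted lines at 1.5-fold. All intervals lie between -0.29 and 0.46. The 24 h interval of Cdkn2d, 0.11 to 0.39, lies above 0, as do those of Ccnd3 at 24 h (0.01 to 0.27) and 72 h (0.04 to 0.30). The 48 h interval of Cdkn2a, -0.27 to -0.02, lies below 0, and none of these was called after adjustment.

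Shares of the summed inhibitor signal give the make-up of the family in each library. Cdkn1a held 31.3% to 34.4% of the signal of the 7 CDK inhibitor genes in 7 libraries and 40.5% in 24 h replicate 1. Cdkn2c held 21.4% to 25.8% and Cdkn1b 13.1% to 17.7%. The sum was 33.8 and 32.4 at 0 h, 36.6 and 36.1 at 24 h, 33.5 and 32.9 at 48 h, and 33.2 and 32.8 at 72 h, highest in both 24 h libraries.

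Genes around the members were counted from lists of the pathway. Over all tested genes, limma called 0.229%, 0.552% and 2.01% at 24, 48 and 72 h. The list of D and E cyclins and CDK partners also held Ccna2, Cdk7, Ccnh and Mnat1 among its 9 tested genes. Of these 9, limma called 0 at each time, with medians of log2 0.10, -0.02 and 0.01. Of the 6 tested CDK inhibitors it called 0 at each time, with medians of log2 0.07, -0.01 and -0.02. Of 9 tested genes of the RB and E2F family it called 0 at each time, and the smallest p at 72 h were those of Rbl1, a relative of the retinoblastoma gene (log2 -0.15, limma adjusted p = 0.508), and the repressor E2f6 (log2 0.13, limma adjusted p = 0.530). Rb1 itself lay below the filter at 0.139 to 0.219. The DREAM and MuvB list held genes of the complex that represses cycle genes in resting cells, and also Mybl2. Of its 6 tested genes limma called 0, with Lin52 at log2 0.11 and Lin37 at -0.11 at 72 h (limma adjusted p = 0.388 and 0.439).

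Of 9 tested genes for ubiquitin ligases and related factors that control cyclins and p27, limma called 0 at each time. Cul1, the scaffold of the SCF ligase, was at 3.58 and 3.26 in the 0 h libraries, against 4.01 and 3.98 at 72 h (log2 0.18, limma adjusted p = 0.206), and Rbx1, its RING partner, was at log2 -0.12 (limma adjusted p = 0.363). Of 19 tested genes for p53 and its network, limma called 0 at 24 and 48 h and 1 lower at 72 h, with 5, 4 and 8 under 0.05 unadjusted, and medians of log2 0.05, 0.02 and 0.09. Over all tested genes the shares under 0.05 unadjusted were the 13.2%, 10.5% and 15.7% given above. At 72 h, 13 of the 19 had a log2 change above 0 and 6 below. The gene that fell was Perp, a membrane protein gene induced by p53, from 2.58 and 2.49 at 0 h to 1.86 and 2.01 at 72 h (log2 -0.27, SE 0.05, limma adjusted p = 0.0409). That call was lost without either 0 h, either 48 h or either 72 h replicate (limma adjusted p = 0.0840 to 0.244) and with the lower floor (limma adjusted p = 0.0539). It was also lost without a filter (limma adjusted p = 0.101) and in the blocked fit, with replicate as a second term (limma adjusted p = 0.0649). The other 7 genes under 0.05 unadjusted at 72 h, named after their values were seen, were all above 0 and none was called. They were Gdf15 (log2 0.36, limma adjusted p = 0.105), Trp53 itself (0.24), Btg2 (0.23), Phlda3 (0.22), Aen (0.16), Gadd45a (0.15) and Polk (0.12), with limma adjusted p from 0.105 to 0.310. Not all were higher at every time: Gdf15 was at log2 0.41 and 0.02 and Aen at 0.20 and 0.05 at 24 and 48 h. Trp53, Btg2, Phlda3, Gadd45a and Polk were at log2 0.10 to 0.18 at 48 h. The p53 targets Mdm2 and Cdkn1a were at log2 0.01 and 0.00 at 72 h.

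Among 21 tested upstream regulators of D cyclins and CDK inhibitors, limma called 0 at each time against 0 h, with medians of log2 -0.02 at each. Foxo1, a transcription factor known to act on Cdkn1b and on D cyclin genes, had 1.61 and 1.58 at 0 h, 1.59 and 1.83 at 24 h, 2.12 and 2.12 at 48 h, and 2.35 and 2.08 at 72 h. At 72 h its change was log2 0.31 (limma adjusted p = 0.0568), and its linear trend over hours rose, by log2 0.11 per 24 h (limma adjusted p = 0.0267). The trend call was lost without a filter (limma adjusted p = 0.102). It was also lost without either 0 h replicate, either 48 h replicate or 72 h replicate 1 (limma adjusted p = 0.0555 to 0.134). Klf6, another transcription factor, was at log2 -0.13 at 72 h (limma adjusted p = 0.205).

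Genes that mark cycling cells gave 0 calls in limma, against 0.229%, 0.552% and 2.01% of all tested genes at 24, 48 and 72 h. Over all tested genes, 13.2%, 10.5% and 15.7% had an unadjusted p under 0.05 at those times. Of 22 tested S phase genes, 3, 0 and 4 had an unadjusted p under 0.05 at 24, 48 and 72 h, with medians of log2 0.04, 0.00 and 0.00. The replication factor genes Gins2 and Mcm5 had log2 0.22 each at 72 h (limma adjusted p = 0.0972 and 0.212). Cdc6 and Slbp, named after their values were seen, had log2 -0.17 and -0.13 at 72 h (limma adjusted p = 0.230 and 0.294). At that time 9 of the 22 had a log2 change above 0 and 13 below. Of 22 tested G2 and mitosis genes, 2, 0 and 2 had an unadjusted p under 0.05, with medians of log2 0.05, 0.00 and -0.05. Of these 22, 17 had a log2 change above 0 and 5 below at 24 h, against 7 above and 15 below at 72 h. Cdc20, which activates the anaphase-promoting complex, had log2 0.20 and the spindle checkpoint kinase gene Bub1 -0.22 at 72 h (limma adjusted p = 0.273 each). At 24 h Cdc20 had log2 0.37 (limma adjusted p = 0.148) and Bub1 -0.05 (limma adjusted p = 0.843).

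**Figure D4:**
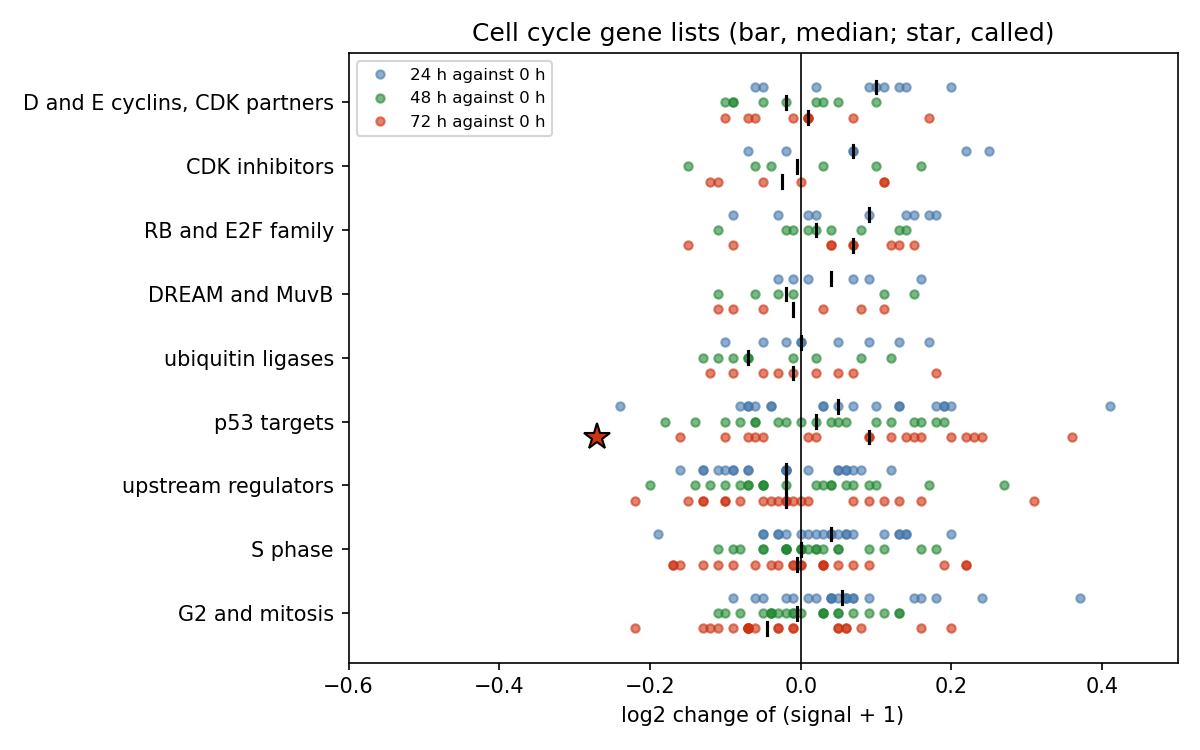
Each point is the log2 change of (signal + 1) from 0 h of a tested gene in 9 lists at 24, 48 and 72 h, with a black bar for the median of the list and a star for a gene called by limma. The only star is Perp at 72 h, at -0.27, and the medians lie between -0.07 and 0.10.

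Genes whose log2 signal followed that of a member most closely over the 8 libraries were sought among 9605 others for the 3 members with the smallest F test p, as a description. For Cdkn2d these were Peli1 (Pearson r = 0.976), Actr1a (0.948) and the pseudogene Mpc1-ps (0.942). For Ccnd3 they were Caml (0.968), Stip1 (0.963) and Cipc (0.948), and for Ccne1 they were Rbm38 (0.965), Mien1 (0.960) and Utp6 (0.956). These are the highest of a large number of correlations over 8 points that share libraries and times.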

How the data were processed

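Per the submitters' processing notes, the tools included deepTools 3.5, HISAT2 2.2 and SAMtools 1.12, with GRCm38 and mm10 as builds; the scaling rule, the counter and its strand setting were not given in the sources used here. The authors deposited 1 normalized signal per gene and library, read from the values and columns as mean coverage over merged exons; transcripts were not separated. The labels' molecule field names genomic DNA, while the protocol and design name RNA. Values were transformed as log2(signal + 1) for the 9606 genes with a mean of at least 1 and fitted with limma 3.58.1 in R 4.3.3, group as the only term, an intensity trend and 4 residual degrees of freedom. P-values were adjusted by Benjamini-Hochberg over all tested genes, threshold 0.05; intervals are 95% and unadjusted. A second fit used hours as a number. Depth is not given, so counting error is unknown. GENCODE M21 holds 54349 of the identifiers, with equal coordinates. Alternatives were other pseudocounts, filters, scalings and variance models, the replicate block and leaving out each library. All members are described; of each list, genes called at 72 h, or otherwise the 2 with the smallest p, are named. Members and lists were chosen with earlier results of these data known.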

Additional observations from a re-analysis of the deposited data

How the results depend on the processing

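No member was called by limma in any comparison under any alternative run, and 0 of 480 alternative values of single members gained a call; 13 changed sign while not called. Ccnd1 was fitted only without a filter or with the lower floor, Ccnd2 was not tested with either floor, and Cdkn2a fell below the filter without 0 h replicate 1. The counts over all genes depended more on the setting. Without a filter the calls at 24, 48 and 72 h, in the F test and for the trend were 4, 5, 63, 6 and 88, against 22, 53, 193, 33 and 188. With the lower floor there were 98 calls at 48 h and 63 in the F test. Leaving out 1 library at a time gave 2 to 104 calls at 24 h, 2 to 98 at 48 h, 9 to 319 at 72 h, 3 to 167 in the F test and 25 to 329 for the trend; the cause was not tested. A lone library was assumed to vary like the other groups. The replicate number as a block gave 24 calls at 48 h; the labels do not say that a number marks a shared culture or day. Deviations of same-numbered libraries correlated between groups at 0.18 (0 and 24 h), 0.34 (0 and 48 h), -0.02 (0 and 72 h), 0.40 (24 and 48 h), 0.10 (24 and 72 h) and 0.07 (48 and 72 h), and 2 libraries a group do not settle whether the numbers pair. With n = 2 per group and no read depth, small changes of the low members Ccnd1, Ccnd2 and Cdkn2a cannot be judged.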
